A study of Mus musculus with 20 samples.

Results

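The nuclear Notch machinery of a mouse T cell line is described here through 10 genes: Rbpj, the DNA-binding factor of the pathway, and 9 genes whose products act with it as coactivators. They are the Mastermind genes Maml1, Maml2 and Maml3, the acetyltransferase genes Ep300, Crebbp, Kat2a and Kat2b, the adaptor gene Snw1 and the methyltransferase gene Kmt2d. They were picked by gene symbol, with earlier results of these data known. All 10 were found among the 24391 genes of the deposited count tables. All 20 samples came from mouse E2-10HA cells, labelled mature T cells and a hybridoma (T cells made permanent by fusion with tumour cells), and their total RNA was sequenced. The H2A.Z guide samples (n = 6, all under 1 line number, #12) carried lentiCRISPRv2 with guides against H2afv and H2afz, the genes for the histone variant H2A.Z, and the CRISPR controls (n = 6) carried that vector without a guide. Both were selected with puromycin. BioNICD cells carried the biotin ligase BirA and a biotin-tagged intracellular domain of the Notch receptor (NICD), as the wild-type form (n = 2) or as the form called DEP mutant (n = 2), and were selected with histidinol and by sorting (their vector also encodes GFP). NICD-ER cells, sorted in the same way, carried Flag-tagged NICD joined to the estrogen receptor and were kept for 24 h with 4-OHT (4-hydroxytamoxifen, n = 2) or with its solvent ethanol (n = 2). The NICD transgenes were driven from retroviral vectors.

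In canonical Notch signalling, ligand binding releases NICD, which enters the nucleus and binds RBPJ on DNA. A Mastermind protein (MAML) then binds the groove formed by RBPJ and NICD and recruits the acetyltransferases p300 (Ep300) and CBP (Crebbp), which acetylate histones and switch target genes on. Without NICD, RBPJ recruits corepressors instead, and in T cells the pathway is known for its role in T lineage commitment and in T cell leukaemia.

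RBPJ itself reads a short sequence whose core is TGGGAA, and this core was looked for on both strands of the 300 bases around the start of each gene (250 bases before and 50 after, RefSeq, build GRCm38.p6). The windows of Rbpj, Kat2a and Ep300 are shown because these genes were lower with 4-OHT and in wild-type BioNICD cells, and those of Maml3 and Maml2 because these members changed most. Each is written along its own gene from 5′ to 3′, with the core in capitals as TGGGAA or, on the other strand, TTCCCA. The 5 windows lie at chr5:53590096-53590395 (plus strand), chr11:100712418-100712717 (minus), chr15:81585964-81586263 (plus), chr3:52104957-52105256 (minus) and chr9:13662210-13662509 (plus).
Rbpj: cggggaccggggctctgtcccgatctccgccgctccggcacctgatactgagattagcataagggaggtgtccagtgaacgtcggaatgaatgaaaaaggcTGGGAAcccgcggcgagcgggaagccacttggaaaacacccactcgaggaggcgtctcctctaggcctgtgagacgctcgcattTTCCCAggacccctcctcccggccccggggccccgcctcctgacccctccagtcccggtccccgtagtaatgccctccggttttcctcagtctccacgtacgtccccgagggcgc
Kat2a: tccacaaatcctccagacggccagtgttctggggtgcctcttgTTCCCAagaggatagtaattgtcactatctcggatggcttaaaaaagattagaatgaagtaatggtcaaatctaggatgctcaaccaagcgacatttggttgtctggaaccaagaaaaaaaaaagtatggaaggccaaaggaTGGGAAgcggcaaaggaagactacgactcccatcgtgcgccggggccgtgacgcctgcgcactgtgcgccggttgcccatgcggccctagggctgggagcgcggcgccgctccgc
Ep300: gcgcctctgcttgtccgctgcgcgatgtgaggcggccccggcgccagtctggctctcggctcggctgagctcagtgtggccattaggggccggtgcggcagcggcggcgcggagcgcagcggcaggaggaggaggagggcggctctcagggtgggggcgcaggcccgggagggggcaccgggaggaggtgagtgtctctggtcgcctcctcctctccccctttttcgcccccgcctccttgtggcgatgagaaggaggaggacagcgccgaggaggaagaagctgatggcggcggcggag
Maml3: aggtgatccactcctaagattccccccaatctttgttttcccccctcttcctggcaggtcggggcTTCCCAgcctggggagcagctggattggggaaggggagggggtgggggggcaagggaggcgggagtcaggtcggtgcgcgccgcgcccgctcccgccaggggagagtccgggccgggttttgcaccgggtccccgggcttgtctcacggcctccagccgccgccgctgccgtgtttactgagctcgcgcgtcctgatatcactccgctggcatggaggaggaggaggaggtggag
Maml2: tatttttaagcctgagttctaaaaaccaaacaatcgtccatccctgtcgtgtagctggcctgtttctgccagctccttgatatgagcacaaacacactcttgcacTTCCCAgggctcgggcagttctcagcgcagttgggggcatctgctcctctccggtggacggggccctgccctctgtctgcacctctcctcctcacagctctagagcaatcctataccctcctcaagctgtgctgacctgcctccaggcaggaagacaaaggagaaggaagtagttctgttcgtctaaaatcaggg
Among the 12 windows listed for members, only the Rbpj window shown and that of Kat2a held the core in both orientations. This held for 1.81% of all 32851 windows. The Ep300 window, shown for the same reason as these, held no core. A second Rbpj window (chr5:53590236-53590535) overlaps the one shown and holds 1 of its 2 cores, and the other Maml2 window (chr9:13297708-13298007) holds none. A core on either strand stood in 5 of the 12 windows listed for 9 members (4 of the 9 genes), against 25.6% of all windows and 28.3% of 27025 genes. The longer form GTGGGAA was in 0 of the 12 windows, against 6.38% of all windows. Snw1 had no window in that table. A match is a description of letters and not a binding site.

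The samples held 10704131 to 48238324 counts. The 13 T cell markers summed to 1793.7 to 2674 CPM (counts scaled to library size) with the guides and 1500.2 to 1819 CPM in controls, and to 2027 to 2074 CPM in wild-type and 1626 to 1641 CPM in DEP mutant cells. They summed to 1970 to 2021 CPM with 4-OHT and 1919 to 1962 CPM with ethanol. Of the 13, 10 exceeded 1 CPM in every sample, while Cd8a was at 0 counts in all groups but the NICD-ER ethanol cells. Cd5 stayed at or under 0.497 CPM in all groups. Cd247 stood at 15.1 to 29.2 CPM with the guides and at most 0.197 CPM in controls. Cd4 stood at 66.1 to 193 CPM with the guides and 3.67 to 5.997 CPM in controls. Of 11 T cell markers tested with the guides, 5 rose and 4 fell. Cd247 (7.55) and Cd4 (4.23) had the largest log2 fold changes among those called. B cell, NK cell and erythroid markers summed to at most 0.523, 2.33 and 0.671 CPM. Myeloid markers summed to 105 to 109 CPM and fibroblast markers to 114 to 117 CPM in wild-type BioNICD cells, against at most 37.0 and 31.6 CPM in all other samples. Pdgfrb alone made the fibroblast sum in wild-type cells (113 to 117 CPM), where Col1a1, Col1a2, Pdgfra and Dcn were at most 0.201 CPM. In guide and control samples, from 0 upward, Col1a1 reached 9.70 and 9.49 CPM and Col1a2 12.6 and 11.3 CPM. Dcn reached 6.04 and 3.95 CPM there, and Pdgfra 2.31 and 2.16 CPM. Of the 5 fibroblast markers, 4 had enough counts to be tested among replicates 1 and 2 of these groups, and 0 among replicates 3 to 6. In wild-type BioNICD cells, Itgam (61.4 to 63.0 CPM) and Cd68 (43.6 to 45.2 CPM) made the myeloid sum, and Lyz2, Csf1r, Mpo and Fcgr1 were at most 0.167 CPM. The targeted genes followed the titles: H2afz stood at 4.55 to 5.70 CPM with the guides and 24.7 to 31.0 CPM in controls. H2afv stood at 27.3 to 56.6 CPM with the guides and 116 to 149 CPM in controls. Notch1, whose reads include those of the transgene, stood at 274 to 290 CPM in wild-type and 628 to 658 CPM in DEP mutant cells, and at 90.3 to 93.8 CPM with 4-OHT and 96.4 to 100.4 CPM with ethanol. In the guide and control samples it stayed at or under 3.37 CPM. Whether replicates are separate cultures is not stated, and a p-value here therefore covers the spread of the samples alone, technical spread included. In RNA from whole cultures, fewer cells that express a gene and less RNA per cell cannot be told apart.

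Per kb of exon, the only scale on which levels of different genes are compared here, Snw1 was the most abundant member, with group means of 67.8 to 83.5 CPM per kb. SNW1, also called SKIP, is a splicing factor that binds RBPJ and NICD. Kat2b (20.1 to 26.2 CPM per kb) and Kat2a (19.0 to 24.9) came next, with overlapping ranges of group means. Crebbp (8.15 to 11.5), Maml1 (7.30 to 11.4), Ep300 (6.81 to 8.21), Rbpj (4.79 to 9.02) and Kmt2d (3.65 to 6.69) formed a middle group whose ranges overlapped from one gene to the next. Maml3 (1.85 to 3.97) overlapped only with Kmt2d. Maml2 lay at 0.00353 to 0.194 CPM per kb, so Maml1 and Maml3 gave nearly all Mastermind reads. Rbpjl, the RBPJ paralog, had 0 counts in all 20 samples, which allows up to 3 counts per sample.

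**Figure D1:**
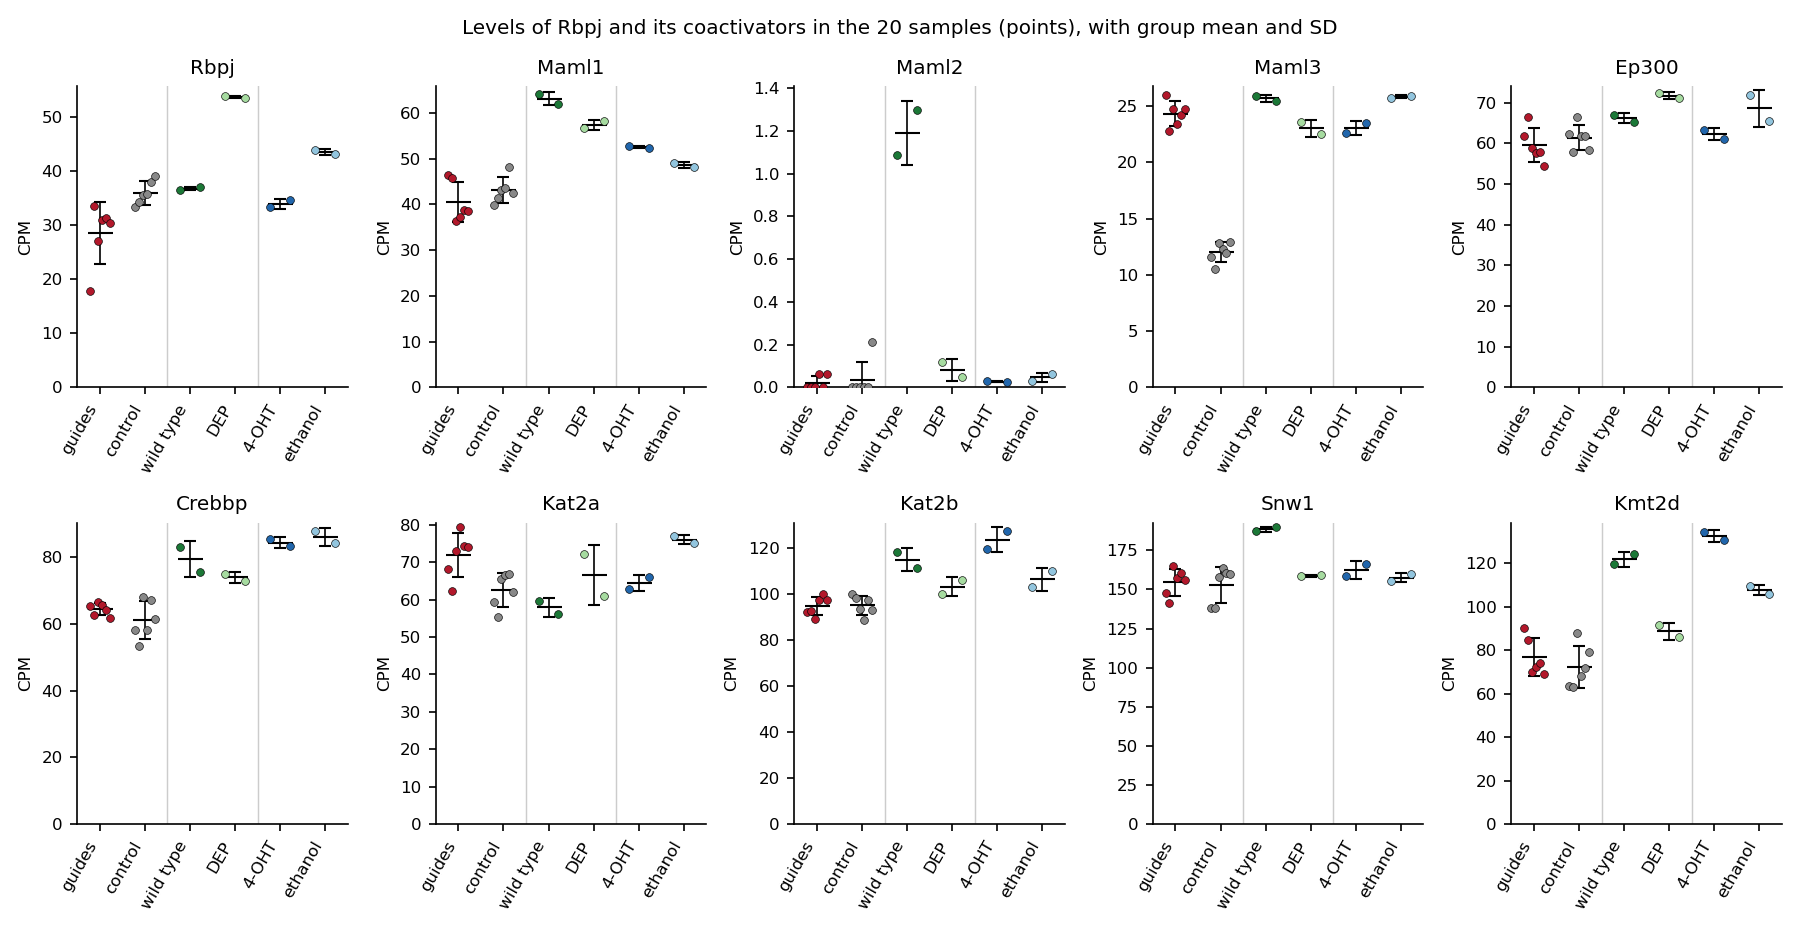
Level of each member in CPM (y axis, from 0, scale set per gene) in the 20 samples, by group (x axis); points are samples, and bars show the mean and SD of each group (n = 6 for guides and control, n = 2 for the others). Rbpj is highest in the 2 DEP mutant samples, Maml3 is lowest in the 6 controls, and Maml2 stands above 1 CPM only in the 2 wild-type BioNICD samples.

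Rbpj (mm9 chromosome 5, 53947018 to 54048684, plus strand, 14 exons) had its highest level in DEP mutant cells, at 53.7 ± 0.206 CPM (SD, n = 2). NICD-ER cells with ethanol followed at 43.5 ± 0.558 CPM (n = 2), and these 2 groups overlapped with no other. Wild-type BioNICD cells (36.7 ± 0.336 CPM, n = 2), controls (36.0 ± 2.18 CPM, n = 6) and NICD-ER cells with 4-OHT (34.0 ± 0.915 CPM, n = 2) lay close together, and each overlapped with its neighbour in this order. The guide samples were lowest, at 28.5 ± 5.67 CPM (n = 6), and overlapped with the 4-OHT samples. The highest group mean was 1.88 times the lowest.

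With the H2A.Z guides, the largest change among the tested members was that of a Mastermind gene. Maml3 rose to 2.02 times the level of the controls, Rbpj fell by 0.34 and Kat2a rose by 0.19 on the log2 scale, and 6 other members did not pass the test. Maml2 was too low to be tested. Thus 2 of 9 tested members rose and 1 fell, while 64.5% of all 10662 genes tested were called (31.8% higher, 32.7% lower), so the share of members called was below the share of all genes. The median log2 fold change was 0.01 over the 9 members and -0.01 over all genes.

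Maml3 (mm9 chromosome 3, 51491535 to 51908928, minus strand, 5 exons) encodes a Mastermind protein that, like MAML1, holds RBPJ and NICD together and brings in p300. It stood at 22.8, 24.5 and 26.0 CPM (lowest, median, highest) with the guides, against 10.5, 12.1 and 12.9 CPM in controls. Every guide sample was above every control, which held for 33.7% of all genes tested and for 1 of the 10 members. In edgeR this was a log2 fold change of 1.01 with an SE of 0.0640 (adjusted p = 1.24e-09), larger in absolute size than that of 90.8% of the genes tested. It was called in both sets of samples, at 1.13 in set 1 (replicates 1 and 2, adjusted p = 0.00218), where 27.6% of genes were called, and 0.96 in set 2 (replicates 3 to 6, adjusted p = 4.48e-11), where 72.1% were. The sets are told apart by whether the labels carry a treatment field.

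Rbpj itself stood at 17.8, 30.8 and 33.5 CPM with the guides, against 33.3, 35.6 and 39.0 CPM in controls. Guide replicate 1 was lowest by far, and guide replicate 2, at 33.5 CPM, was the only guide sample to reach the range of the controls. In edgeR this was a log2 fold change of -0.34 with an SE of 0.105 (adjusted p = 0.0103). Without guide replicate 1 the guide mean was 30.7 ± 2.35 CPM (SD, n = 5) and the log2 fold change -0.23 (adjusted p = 0.00338). The call was lost in set 1 alone (-0.39, adjusted p = 0.307) and without the 3 samples in which the ribosomal precursor Rn45s held over 5% of counts (-0.34, adjusted p = 0.0512), and adjusted p ran from 8.54e-05 to 0.307 over 22 alternatives.

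Genes of chromosome 5 were lower with the guides as a whole. Over the 682 tested genes of chromosome 5 the median log2 fold change was -0.33, close to the -0.34 of Rbpj, and 26.1% of these genes lay above 0. Of 9 other genes tested within 2 Mb of Rbpj, 7 fell and 0 rose, with fold changes between -1.42 and -0.07 and a median of -0.68. Guide replicate 1 was the lowest guide sample for 4 of these 9 genes, and over all genes it was lowest in 30.5% and highest in 32.8%. The part of a change common to chromosome 5 in the fold change of Rbpj was not tested. The median of chromosome 5 was -0.000307 with 4-OHT against ethanol and 0.00219 in wild-type against DEP mutant cells.

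**Figure D2:**
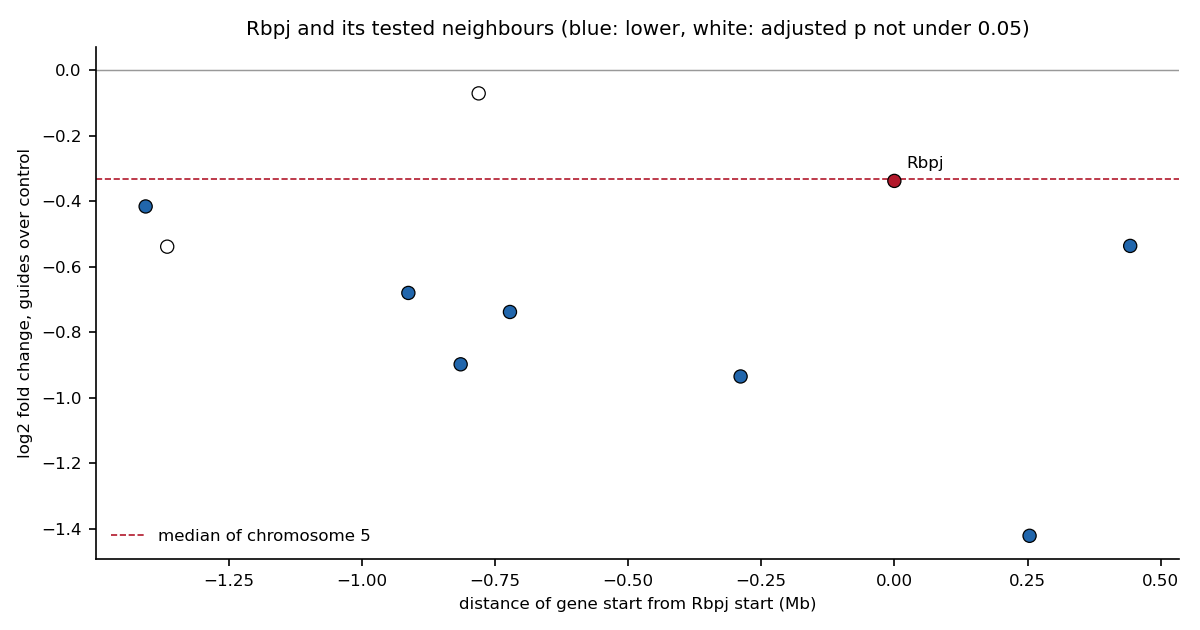
Log2 fold change of H2A.Z guides over control (y axis) for Rbpj (red) and the 9 other genes tested within 2 Mb, by distance of the gene start from that of Rbpj in Mb (x axis); blue points fell at an adjusted p under 0.05, white points did not pass, and the dashed line is the median of chromosome 5. All 10 points lie below 0, and Rbpj, at -0.34, sits on the chromosome's median of -0.33.

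Of the acetyltransferase genes, Kat2a (mm9 chromosome 11, 100566060 to 100573781, minus strand, 18 exons), which encodes GCN5, the catalytic subunit of SAGA and ATAC complexes, stood at 62.4, 73.5 and 79.4 CPM with the guides, against 55.2, 63.7 and 66.7 CPM in controls. The groups overlapped through guide replicate 2. The log2 fold change was 0.19 (SE 0.0435, adjusted p = 0.000997), and it was 0.21 in set 2 (adjusted p = 0.00011) but did not pass in set 1 alone (adjusted p = 0.286). Kat2b (mm9 chromosome 17, 53706296 to 53812046, plus strand, 19 exons), which encodes the related PCAF, gave -0.01 (adjusted p = 0.862). Ep300 (mm9 chromosome 15, 81416644 to 81482507, plus strand, 31 exons) gave -0.05 (adjusted p = 0.39) and Crebbp (mm9 chromosome 16, 4084048 to 4213404, minus strand, 31 exons) gave 0.07 (adjusted p = 0.26). Ep300 gave -0.11 in set 2 (adjusted p = 0.0295) and 0.09 in set 1 (adjusted p = 0.601). For these 3 genes the guide and control samples overlapped. Snw1 (mm9 chromosome 12, 88790860 to 88813249, minus strand, 14 exons) gave 0.01 (adjusted p = 0.798).

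Maml1 and Kmt2d differed between the sets. Maml1 (mm9 chromosome 11, 50069137 to 50105838, minus strand, 5 exons), the best known Mastermind gene, stood at 46.4 and 45.8 CPM in the guide samples of set 1, against 39.95 and 41.3 CPM in their controls. In set 2 it stood at 36.3 to 38.9 CPM with the guides, against 42.4 to 48.1 CPM in controls, so that neither set overlapped and the direction was opposite. Its log2 fold change was -0.23 in set 2 (adjusted p = 0.000423) and 0.18 in set 1, where it did not pass, and the difference of -0.41 (SE 0.0942, adjusted p = 0.00873) passed its own test. Kmt2d (mm9 chromosome 15, 98662100 to 98701636, minus strand, 55 exons) encodes a methyltransferase of histone H3 that primes enhancers. It stood at 90.5 and 84.7 CPM in the guide samples of set 1, against 63.5 and 62.9 CPM in their controls, with a log2 fold change of 0.46 (adjusted p = 0.0202). In set 2 it stood at 69.0 to 74.4 CPM with the guides, against 68.2 to 88.0 CPM in controls, with a fold change of -0.10 that did not pass. The difference between the sets was -0.57 (SE 0.119, adjusted p = 0.00493). These were 2 of 9 members tested for a difference, against 15.7% of all genes (1672 genes). That number was 4062 without guide replicate 2, 851 without control replicate 1 and 1037 without control replicate 2. Without the samples high in Rn45s it was 447, and the call of Kmt2d was lost (adjusted p = 0.0561).

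When NICD-ER was activated for 24 h, Rbpj, Kat2a, Ep300 and Maml3 fell and Kmt2d and Kat2b rose relative to ethanol. These changes were small, the largest being 0.35 on the log2 scale. Maml2, which entered the NICD models through the wild-type samples alone, is left out of the counts and medians of members here and in the comparisons that follow. In the model of all 20 samples 2 members were called, against 2218 of 11988 genes. In the NICD model 6 of the 9 other members were called (2 higher, 4 lower), against 36.2% of the 12499 genes tested (19.0% higher, 17.2% lower). The median log2 fold change was -0.03 over the 9 members and -0.000449 over all genes. For 7 of the 9 the 4-OHT and ethanol samples did not overlap, which with 2 samples a group held for 66.1% of all genes.

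Rbpj stood at 33.3 and 34.6 CPM with 4-OHT, against 43.9 and 43.1 CPM with ethanol. Both 4-OHT samples were below both ethanol samples. The log2 fold change was -0.35 (SE 0.0529, adjusted p = 1.15e-05), and the direction held under all 12 alternatives (-0.38 to -0.33), though the call was lost when the model took in all 20 samples (-0.36, adjusted p = 0.0764; range over alternatives 1.03e-07 to 0.0764).

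Among the Mastermind genes, Maml3 stood at 22.6 and 23.5 CPM with 4-OHT, against 25.8 and 25.9 CPM with ethanol. The groups did not overlap, and the log2 fold change was -0.16 (SE 0.0634, adjusted p = 0.0482). This call was lost under DESeq2 (adjusted p = 0.135), without the filter on low counts (0.105), in the model of all 20 samples (0.129) and without any one of the 4 samples. Maml1 gave 0.11 (adjusted p = 0.0648). Maml2 (mm9 chromosome 9, 13424433 to 13513977, plus strand, 5 exons) had 1 count in each 4-OHT sample and 1 and 2 counts with ethanol.

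Kat2a and Kat2b moved in opposite directions. Kat2a stood at 62.9 and 65.9 CPM with 4-OHT, against 76.9 and 75.1 CPM with ethanol (log2 fold change -0.23, SE 0.0558, adjusted p = 0.00182). Kat2b stood at 119.5 and 127 CPM with 4-OHT, against 103 and 109.9 CPM with ethanol (log2 fold change 0.22, SE 0.0439, adjusted p = 0.00038). Neither gene's samples overlapped between the treatments, and both calls held under every alternative run. Ep300 stood at 63.3 and 61.2 CPM with 4-OHT, against 71.9 and 65.4 CPM with ethanol (log2 fold change -0.14, SE 0.0487, adjusted p = 0.0299). Its ethanol samples differed from each other by more than the nearer one differed from the 4-OHT samples, and the call was lost without ethanol replicate 1 (adjusted p = 0.375), without 4-OHT replicate 2 (0.239), in the model of all 20 samples (0.205) and under DESeq2 (0.0626). Crebbp gave -0.03 (adjusted p = 0.723) and overlapped between the treatments.

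Kmt2d had the most significant rise, at 134 and 131 CPM with 4-OHT, against 109 and 106 CPM with ethanol. The groups did not overlap, and the log2 fold change was 0.30 (SE 0.0413, adjusted p = 2.99e-06). The call was lost in the model of all 20 samples (adjusted p = 0.107). Snw1 gave 0.05 (adjusted p = 0.328). Ethanol replicate 1 also differed from ethanol replicate 2 in Lars2, the gene for mitochondrial leucyl-tRNA synthetase, at 91.0 CPM against 2791 CPM. The mean chi-square per gene between the 2 ethanol samples was 19.9, where sampling noise gives 1, against 4.26 between the 4-OHT samples. The member counts were the same with Lars2 and Rn45s left out. That setting drops 2 genes and keeps every sample, so it cannot show whether a difference in sample quality matters.

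Wild-type BioNICD cells differed from DEP mutant cells in 7 of the 9 members other than Maml2. Rbpj, Kat2a and Ep300 were lower, and Kmt2d, Snw1, Kat2b and Maml1 were higher in wild-type cells. Of all 12499 genes tested, 65.6% were called (32.0% higher, 33.6% lower), so most members would be called at the share of all genes. The wild-type and DEP mutant samples did not overlap for any of the 9, which held for 80.4% of all genes. The median log2 fold change was 0.12 over the 9 members and -0.02 over all genes.

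Rbpj showed the same order as in the NICD-ER experiment, with 36.5 and 37.0 CPM in wild-type cells, against 53.8 and 53.5 CPM in DEP mutant cells. The 2 samples of each form lay within 1 CPM of each other. The log2 fold change was -0.57 (SE 0.0551, adjusted p = 4.22e-09) and kept its direction and its call under all 11 alternatives (-0.60 to -0.54).

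Maml2 was found at more than 3 counts only in wild-type BioNICD cells. It had 54 and 31 counts there (1.09 and 1.30 CPM), against 2 and 1 counts in DEP mutant cells. The guide samples had 0 or 1 count each, and the controls had 0 counts except for 3 counts in replicate 6. The 4-OHT samples had 1 count each and the ethanol samples 1 and 2. The pooled level in wild-type cells was 14.7 times that in DEP mutant cells (95% counting interval 4.87 to 72.8), 44.1 times that with 4-OHT (11.8 to 370.4) and 30.3 times that in controls (10.0 to 150.1). These intervals cover counting error only. The gene entered the test through the wild-type samples alone, so its call (adjusted p = 5.44e-06) is no further support. Of the fibroblast and myeloid markers, Pdgfrb and Itgam were likewise high in wild-type cells. Cd68 stood at 43.6 to 45.2 CPM there and at 23.8 to 27.7 CPM in DEP mutant cells. The other markers of these 2 lists were at most 0.201 CPM in wild-type cells. The NK marker Ncr1 stood at 2.01 to 2.33 CPM in wild-type cells and at 0 CPM in all other groups. The other NK markers were at most 0.13 CPM in wild-type cells. Whether other cells were present was not tested.

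Kmt2d stood at 119.6 and 124 CPM in wild-type cells, against 91.6 and 86.0 CPM in DEP mutant cells (log2 fold change 0.44, SE 0.0445, adjusted p = 8.47e-09). Snw1 stood at 187 and 189.7 CPM in wild-type cells, against 158 and 159 CPM in DEP mutant cells (log2 fold change 0.23, SE 0.0366, adjusted p = 9.19e-06). Both rose well beyond the spread between replicates. Slirp shares exon bases with Snw1 on the opposite strand, and the counting recorded no strand setting, so their reads cannot be told apart where they overlap. Slirp fell in the same comparison (log2 fold change -0.15, adjusted p = 0.0434).

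The smaller changes depended more on the choice of samples and of processing. Of 11 alternatives, the call was lost in 8 for Ep300, 7 for Maml1, 4 for Kat2b and 2 for Kat2a. Kat2a stood at 59.6 and 56.1 CPM in wild-type cells, against 72.1 and 60.8 CPM in DEP mutant cells (log2 fold change -0.21, SE 0.0609, adjusted p = 0.00496). Without DEP mutant replicate 1 it was -0.08 (adjusted p = 0.258; range over alternatives 7.62e-05 to 0.258). Maml1 stood at 64.0 and 62.0 CPM in wild-type cells, against 56.6 and 58.2 CPM in DEP mutant cells (log2 fold change 0.12, SE 0.0491, adjusted p = 0.0392). Kat2b stood at 118 and 111 CPM in wild-type cells, against 100.1 and 106 CPM in DEP mutant cells (0.14, SE 0.0465, adjusted p = 0.0124). Ep300 stood at 67.1 and 65.3 CPM in wild-type cells, against 72.5 and 71.1 CPM in DEP mutant cells (-0.13, SE 0.0514, adjusted p = 0.027). Over the alternatives, adjusted p reached 0.258 for Maml1, 0.175 for Kat2b and 0.168 for Ep300. Maml3 (0.14, adjusted p = 0.0757) and Crebbp (0.09, adjusted p = 0.107) did not pass.

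**Figure D3:**
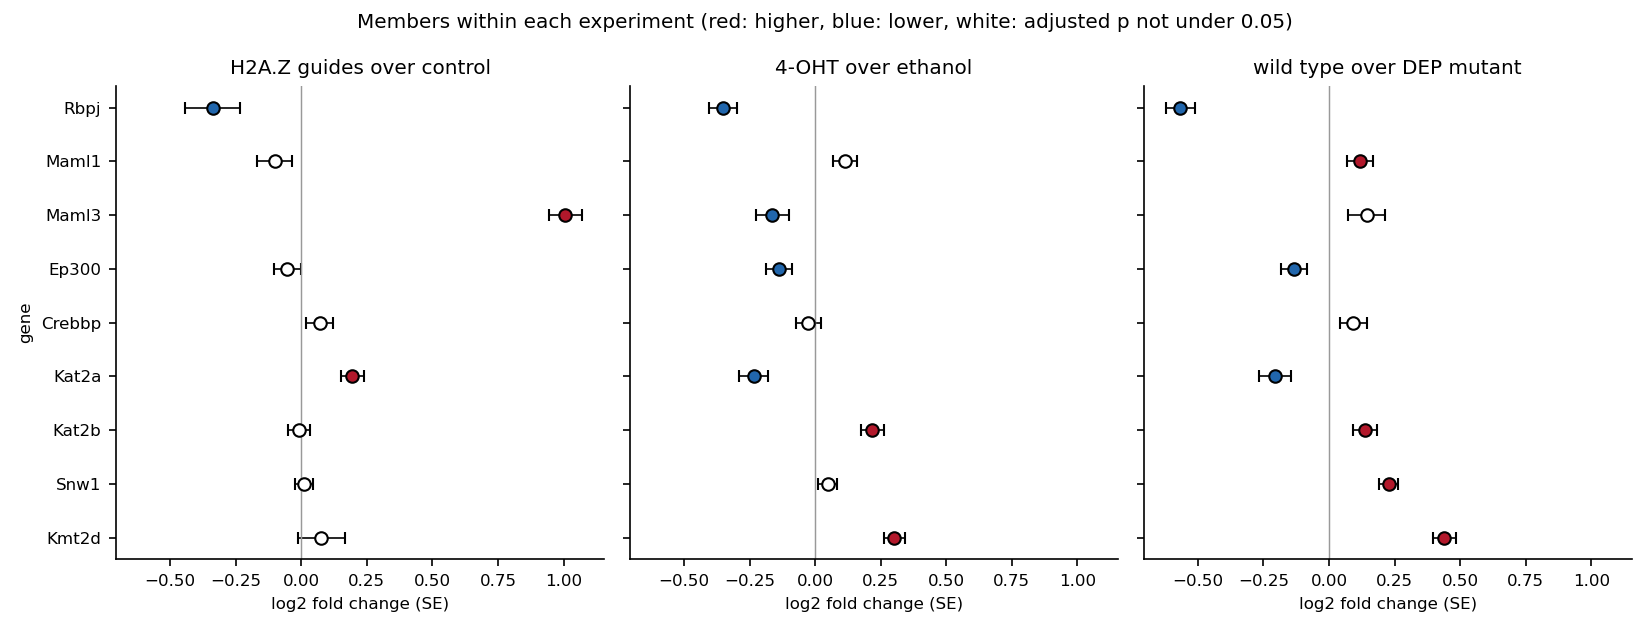
Log2 fold change (x axis) of 9 members (y axis) with H2A.Z guides over control, 4-OHT over ethanol, and wild type over DEP mutant; bars show the SE, red points rose, blue points fell and white points did not pass an adjusted p of 0.05. Rbpj lies left of 0 in all 3 panels (-0.34, -0.35 and -0.57), and Maml3 moves by 1.01 with the guides but by -0.16 and 0.14 in the NICD panels. Maml2 is left out because only 1 group had more than 3 counts in a sample.

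The effects of 4-OHT over ethanol and of wild type over DEP mutant were then compared in 1 model of the 8 NICD samples. They differed for 3 of the 9 members other than Maml2, against 51.5% of all genes. Rbpj was lower by less with 4-OHT against ethanol than in wild-type against DEP mutant cells (difference 0.22, SE 0.0763, adjusted p = 0.0217). This call was lost in 4 of 13 alternatives. These were DESeq2 (adjusted p = 0.116) and the fits without wild-type replicate 1, DEP mutant replicate 1 or 4-OHT replicate 2, which leave 1 sample in a group. Against the CRISPR control, Rbpj gave 0.14 in wild-type cells (adjusted p = 0.383) and 0.70 in DEP mutant cells (adjusted p = 0.000324). Maml3 differed by -0.31 (adjusted p = 0.00915, and 0.0592 without DEP mutant replicate 2) and Snw1 by -0.18 (adjusted p = 0.0051). Maml2 differed by -4.58 (adjusted p = 0.0186, and up to 0.196 over alternatives), a fitted value that rests on counts of 1 and 2 in 3 of the 4 groups. For Kmt2d, Kat2a, Kat2b, Ep300, Crebbp and Maml1 the difference did not pass, which does not show equal effects.

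**Figure D4:**
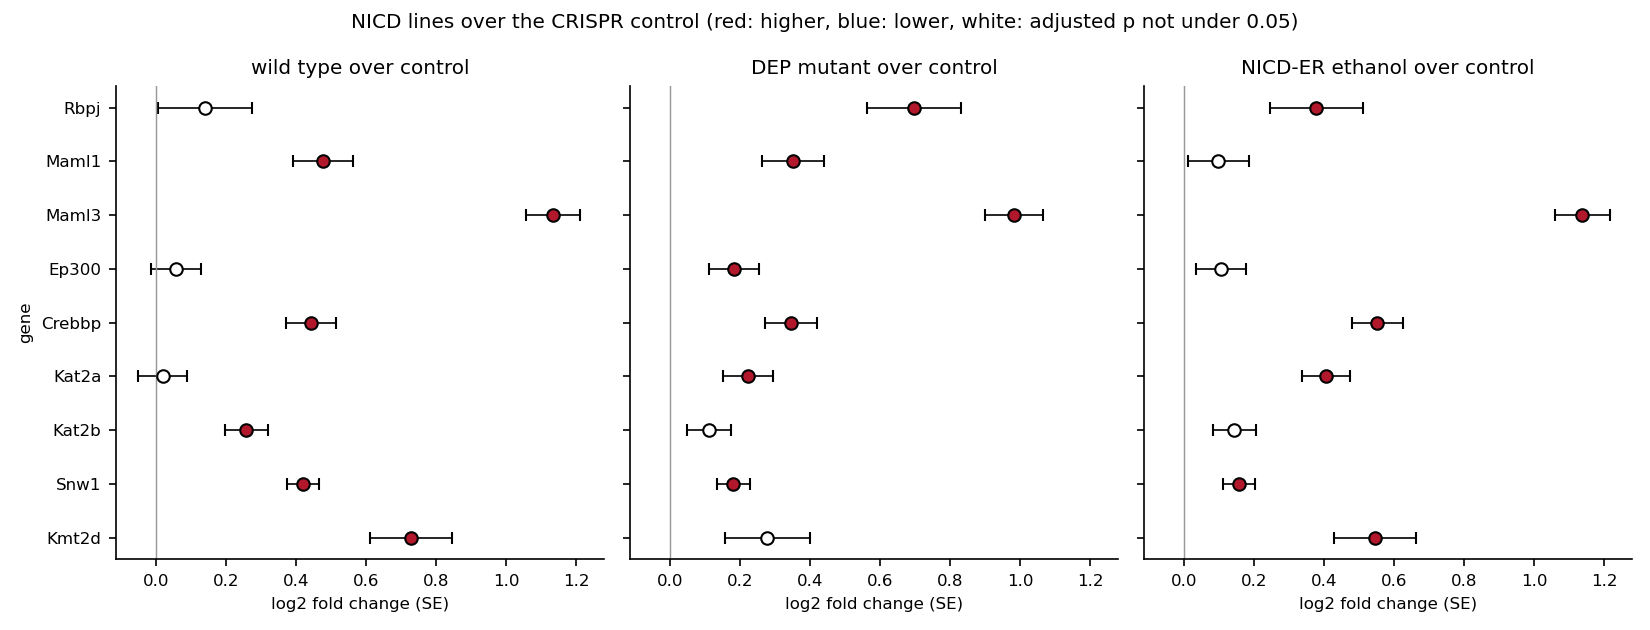
Log2 fold change (x axis) of 9 members (y axis) in wild-type BioNICD, DEP mutant and NICD-ER ethanol cells over the CRISPR control; bars show the SE, red points rose and white points did not pass an adjusted p of 0.05. All points lie right of 0, with Maml3 at 1.13, 0.98 and 1.14 and Rbpj at 0.14, 0.70 and 0.38. Kat2a in wild-type cells lies at 0.02 (SE 0.0702) in this fit with the set as a term. Its mean there, 57.9 CPM, is below the 62.5 CPM of all controls.

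Set against the CRISPR control, the 3 NICD lines had higher levels of most members and lower levels of none that passed. These 3 comparisons share the control samples and are not independent. Vector, selection and the directory named in the file headers differ together between NICD and CRISPR samples and cannot be told apart. In wild-type cells 6 of the 9 members other than Maml2 rose and 0 fell, against 32.2% of all 11988 genes called higher and 30.0% lower (62.1% in either direction). In DEP mutant cells 7 rose and 0 fell, against 20.7% and 20.6% (41.3%), and in NICD-ER cells with ethanol 6 rose and 0 fell, against 29.4% and 26.9% (56.2%). Each share of risen members was larger than that of all genes. The samples did not overlap with the controls for 6, 6 and 7 of the 9 members, against 61.2%, 42.4% and 53.0% of all genes. The median log2 fold change of the 9 members was 0.42, 0.28 and 0.38 in these lines, against 0.01, 0.01 and 0.03 over all genes.

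Maml3 rose most of the members other than Maml2. It stood at 25.9 and 25.5 CPM in wild-type, 23.6 and 22.5 CPM in DEP mutant and 25.8 and 25.9 CPM in NICD-ER ethanol cells, against 10.5 to 12.9 CPM in controls. No NICD sample overlapped with a control, and the log2 fold changes were 1.13, 0.98 and 1.14 (adjusted p = 6.49e-11, 1.03e-08 and 1.45e-10). The guide samples, at 22.8 to 26.0 CPM, lay in the range of the NICD lines, so the 6 controls were the only samples of the series under 20 CPM. All controls carry the empty vector, and no sample of untransduced E2-10HA cells was analysed here.

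Rbpj was higher in DEP mutant cells (log2 fold change 0.70, SE 0.135, adjusted p = 0.000324) and in NICD-ER cells with ethanol (0.38, SE 0.133, adjusted p = 0.0202) than in controls. In wild-type cells it gave 0.14 (adjusted p = 0.383), and their 2 samples lay inside the range of the controls. The NICD-ER call was lost without ethanol replicate 1 (adjusted p = 0.087), without ethanol replicate 2 (0.0679) and with set 1 alone (0.147). The DEP mutant call held under all 14 alternatives (0.66 to 0.72).

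Crebbp rose in all 3 lines, by 0.44, 0.35 and 0.55 in wild-type, DEP mutant and NICD-ER ethanol cells (adjusted p = 2.12e-05, 0.000871 and 1.71e-06). Its samples stood at 83.3 and 75.7 CPM, 75.2 and 72.8 CPM, and 88.0 and 84.3 CPM, against 53.5 to 68.1 CPM in controls, and did not overlap with them. Kmt2d rose by 0.73 in wild-type cells (adjusted p = 1.7e-05) and by 0.55 in NICD-ER ethanol cells (adjusted p = 0.000519). In DEP mutant cells it gave 0.28 (adjusted p = 0.0713), and with set 1 alone 0.49 (adjusted p = 0.000169). Maml1 rose by 0.48 in wild-type cells (adjusted p = 6.99e-05) and by 0.35 in DEP mutant cells (adjusted p = 0.0035). Kat2a rose by 0.22 in DEP mutant cells (adjusted p = 0.0158; 0.407 without DEP mutant replicate 1) and by 0.41 in NICD-ER ethanol cells (adjusted p = 4.29e-05), and Kat2b rose by 0.26 in wild-type cells (adjusted p = 0.0011). Ep300 was called in DEP mutant cells only just (0.18, adjusted p = 0.048, and up to 0.2 over 14 alternatives).

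Snw1 rose by 0.42 in wild-type cells (adjusted p = 8.84e-08), 0.18 in DEP mutant cells (adjusted p = 0.00377) and 0.16 in NICD-ER ethanol cells (adjusted p = 0.00641). These fits take the set as a term. The DEP mutant samples (158.4 and 159.3 CPM) and ethanol samples (155.4 and 159.8 CPM) lay inside the range of the controls (137.9 to 163.7 CPM). Control replicates 1 and 2 of set 1 stood at 137.9 and 138.3 CPM, and those of set 2 at 157.7 to 163.7 CPM. The median log2 fold change of all genes on its chromosome 12 was 0.24, 0.31 and 0.32 in the same comparisons. Snw1 thus lay above the chromosome median in wild-type cells and below it in DEP mutant and NICD-ER ethanol cells. The last 2 calls were lost without the filter on low counts (adjusted p = 0.0584 and 0.0601).

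Within each sample, ratios of CPM per kb give the balance of related members. Maml1 over Maml3 was 1.96 ± 0.232 with the guides and 4.22 ± 0.355 in controls (SD, n = 6 each), with no overlap. It was 2.88 ± 0.0287 in wild-type and 2.92 ± 0.155 in DEP mutant cells, and 2.68 ± 0.0847 with 4-OHT and 2.21 ± 0.0399 with ethanol (n = 2 each). Maml1 reads therefore exceeded Maml3 reads per kb in every group. Crebbp over Ep300 was 1.26 ± 0.0895 with the guides and 1.16 ± 0.0834 in controls, 1.40 ± 0.0681 in wild-type and 1.20 ± 0.0112 in DEP mutant cells, and 1.58 ± 0.00799 with 4-OHT and 1.46 ± 0.0532 with ethanol. Crebbp was thus the more abundant of the pair per kb in each group mean. Kat2a over Kat2b was 1.17 ± 0.0840 with the guides and 1.02 ± 0.108 in controls, 0.779 ± 0.00128 in wild-type and 0.999 ± 0.161 in DEP mutant cells, and 0.806 ± 0.00935 with 4-OHT and 1.11 ± 0.0704 with ethanol. All wild-type and 4-OHT samples lay below every other sample in this ratio. These ratios repeat the values of the genes above and were not tested.

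**Figure D5:**
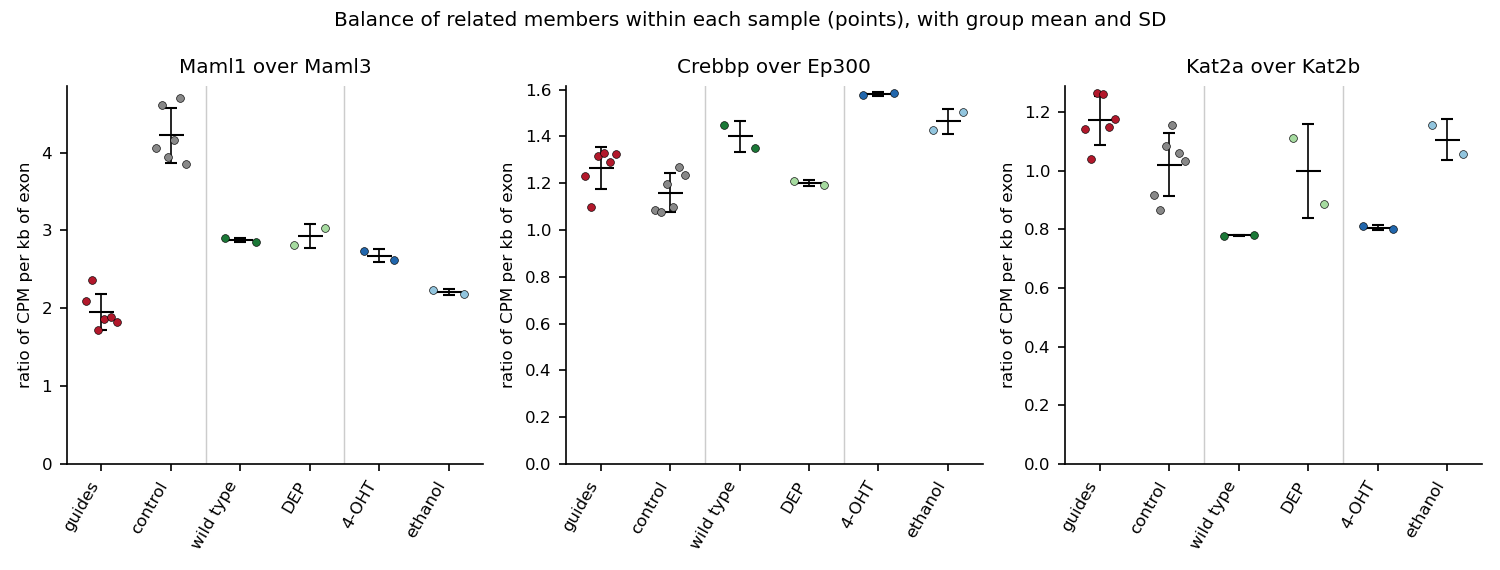
Ratio of CPM per kb of exon (y axis, from 0) of Maml1 over Maml3, Crebbp over Ep300 and Kat2a over Kat2b in the 20 samples, by group (x axis); points are samples, and bars show the mean and SD of each group. The Maml1 over Maml3 ratio is highest in the 6 controls (4.22 ± 0.355), and Kat2a over Kat2b is lowest in wild-type BioNICD (0.779 ± 0.00128) and 4-OHT samples (0.806 ± 0.00935).

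Partners of these members were counted from lists chosen with earlier results known. Of all genes, 64.5% were called with the guides, 36.2% with 4-OHT and 65.6% in wild-type against DEP mutant cells, and the counts of the lists are to be read against these shares. Among 9 partners of KMT2C and KMT2D complexes, 3 rose and 1 fell with the guides, where Ash2l, a core subunit of these complexes, rose by 1.74 and Ncoa6 by 0.22. With 4-OHT 1 rose (Paxip1, 0.14), and in wild-type against DEP mutant cells 0 rose and 6 fell (Ash2l -0.54, Kdm6a -0.31). Of 15 SAGA and ATAC partners of KAT2A and KAT2B, 6 rose and 4 fell with the guides (Taf5l 0.52, Tada2b 0.48). With 4-OHT 3 rose and 2 fell (Zzz3 0.31, Usp22 -0.27), and in wild-type against DEP mutant cells 1 rose and 5 fell (Supt20 -0.43, Taf5l -0.42). Of 10 other acetyltransferases and p160 coactivators, 4 rose and 2 fell with the guides (Kat6a 0.61, Ncoa1 0.46). With 4-OHT 1 rose and 1 fell (Kat6a 0.16, Ncoa3 -0.24), and in wild-type against DEP mutant cells 3 rose and 3 fell (Kat6a 0.35, Kat7 -0.46).

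The mediator kinase module phosphorylates NICD, and FBXW7 then marks it for destruction. Of 8 such genes, 2 rose and 2 fell with the guides (Fbxw7 0.88, Cdk8 -0.25), 4 rose and 1 fell with 4-OHT (Med12l 0.41, Ccnc 0.23), and 2 rose and 3 fell in wild-type against DEP mutant cells (Med12l 0.94, Med13l 0.81). RBPJ corepressors compete with NICD for RBPJ. Of 21 tested with the guides, 9 rose and 5 fell (Tle3 1.03, Ctbp1 0.74). Of 22 tested in the NICD model, 4 rose and 0 fell with 4-OHT (Rita1 0.40, Tle3 0.32), and 7 rose and 10 fell in wild-type against DEP mutant cells (Ctbp2 -1.75, Tle3 0.85). Canonical Notch targets, the genes the complex acts on, held changes of up to 11.74 on the log2 scale. With the guides 7 of 11 tested rose and 1 fell (Hes1 2.29, Bcl2 1.32), and in each of the 2 NICD comparisons 9 of 16 rose and 5 fell. The largest were 7.57 for Rhov and 6.48 for Hey1 with 4-OHT, and 11.74 for Rhov and 10.50 for Il2ra in wild-type against DEP mutant cells. Notch1, whose reads include those of the transgene, is on this list. It is among the 5 that fell in wild-type against DEP mutant cells (-1.20). The list medians were 0.52, 0.22 and 0.53, against -0.01, -0.000449 and -0.02 over all genes.

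Among 8394 genes, the 3 whose 6 group means of log2 CPM followed those of Rbpj most closely were Xylt2 (Pearson r = 0.989), Atxn7l1 (r = 0.988) and Sf3a2 (r = 0.979). With only 6 points, 44 genes had r above 0.9. Among the members, Rbpj was most like Ep300 (r = 0.947) over the 6 group means, Kat2b was most like Kmt2d (r = 0.975), and Kat2a and Snw1 were least alike (r = -0.648). The points share the parental line and the scaling of their samples, so these values are descriptions.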

How the data were processed

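Per the labels, RNA depleted of ribosomal RNA was sequenced from 20 samples with a stranded total RNA kit. Per the file headers, the authors ran featureCounts 1.5.0 over the exons of UCSC mm9 genes, setting neither a strand option nor an option for reads with several positions. The submitters' processing notes also name FastQC, Trimmomatic, STAR and DESeq2, without versions. The tables hold raw counts per gene as deposited, not normalized.

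Levels are CPM, computed from the counts with TMM factors over all genes and all 20 samples. Tests used the edgeR 4.0.16 quasi-likelihood test in R 4.3.3, with filterByExpr, TMM on the genes kept, and adjustment by Benjamini-Hochberg across every tested gene. A call is an adjusted p under 0.05, and every adjusted p in the text is from edgeR unless DESeq2 (1.42.0) is named. The SE of a log2 fold change is its size over the root of its F statistic. H2A.Z guides and controls (12 samples) were fitted with the set as a term, the 4 NICD groups (8 samples) in 1 model, and NICD lines against the control in a model of all 20 samples with the set as a term. All NICD samples belong to set 1, so these last folds refer to the control level fitted for set 1. The set term is fitted over guides and controls together. Where the guide effect differs between the sets, as for Maml1 and Kmt2d, the fitted level departs from the measured controls of set 1. Over 14 alternatives, the log2 fold change in wild-type cells against controls ran from 0.40 to 0.64 for Maml1 and from 0.62 to 0.96 for Kmt2d. Titles gave the groups. The description of 6 of 8 CRISPR samples of set 2 names another vector than the title and the plasmid field, which were followed. Named genes are all 10 members, and per list and comparison the 2 called genes of largest fold change. The members and lists were chosen with earlier results of these data known.

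Replicate numbers were not taken to pair samples. Between guides and controls, deviations of same-numbered samples from their group means correlated at 0.373 to 0.543 and at -0.194 to 0.306 once the set was taken out. In the other pairs r was -0.0222 (wild type and DEP mutant) and 0.28 (4-OHT and ethanol). No 2 replicates agreed within sampling noise (mean chi-square per gene at least 2.66, where noise gives 1). Totals of 10704131 to 48238324 counts set the precision. Intervals for Maml2 are exact 95% counting intervals. Alternatives were other scalings, DESeq2, no filter, other sample sets, a replicate block and leaving out each sample. Fits were checked on simulated counts. Rbpj-ps1, Rbpj-ps3 and Kat2b-ps, pseudogene copies, are not in the counted annotation. No option was set for reads with several positions, and the effect of these copies on the counts of the parent genes was not tested.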

Additional observations from a re-analysis of the deposited data

Results flagged for a closer look

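Of the 20 sets of 6 values checked (10 members in guides and controls), 1 held a sample far from the others. This was Maml2 in control replicate 6, at 0.211 CPM from 3 counts, against 0 counts in the other 5 controls. Chance gives about 1 in 20 such cases, but over all 10662 genes tested 16.2% of the guide sets and 3.64% of the control sets held one. Any count in 1 sample against 0 in the other 5 meets this rule.

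The effect of 4-OHT over ethanol minus that of wild type over DEP mutant passed its own test for Rbpj (0.22, adjusted p = 0.0217), Maml2 (-4.58, adjusted p = 0.0186), Maml3 (-0.31, adjusted p = 0.00915) and Snw1 (-0.18, adjusted p = 0.0051). The H2A.Z effect in set 2 minus that in set 1 passed for Maml1 (-0.41, adjusted p = 0.00873) and Kmt2d (-0.57, adjusted p = 0.00493). Maml2 entered the test through the wild-type samples alone, so its call gives no support, and its adjusted p reached 0.196 over alternatives.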

How the results depend on the processing

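Counts of members include Maml2 here, with 8 in wild-type against DEP mutant cells, 7 in wild-type cells against controls and 4 for the difference between the NICD effects. They stayed within 1.5 times of these and of the counts given above except as follows. With the H2A.Z guides 5 members were called in set 2 alone, against 7756 of 10758 genes. The difference between sets left 1 without the samples high in Rn45s, against 447 of 10767 genes. In the model of all 20 samples 2 members were called with 4-OHT and 5 in wild-type against DEP mutant cells. Of all 11988 genes, 2218 and 6491 were called there. Leaving out 1 sample gave 4 to 7 members in wild-type against DEP mutant cells and 2 to 5 for the difference between the NICD effects. Over all genes, calls with the guides numbered 2948 in set 1 alone (6874 in both sets), those with 4-OHT 2218 in the model of all 20 samples (4521), and those for the difference between sets 447 without the samples high in Rn45s, 851 and 1037 without control replicate 1 or 2, and 4062 without guide replicate 2 (1672). Signs turned only for log2 values that had not passed the test. With the guides these were Kat2b without the filter (0.0109), Maml1 (0.177) and Ep300 (0.0896) in set 1 alone, and Kat2b (0.0463), Snw1 (-0.00404) and Kmt2d (-0.103) in set 2 alone. For the difference between the NICD effects they were Maml1 (0.00381) and Ep300 (0.00316) under upper quartile scaling, and Ep300 with the replicate block (0.00333).

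Ranges that crossed 0 on leaving out 1 sample were Kat2b with the guides (-0.0294 to 0.0148), Crebbp with 4-OHT (-0.0544 to 0.000247), and Ep300 (-0.00273 to 0.0891) and Kat2a (-0.0137 to 0.0733) in wild-type cells against controls. For the difference between the NICD effects they were Ep300 (-0.0684 to 0.0588), Kat2a (-0.150 to 0.101) and Maml1 (-0.0239 to 0.0149), and between sets Kat2a (-0.0510 to 0.0795) and Rbpj (-0.302 to 0.615). Without guide replicate 2 the last was 0.61 (adjusted p = 0.00108). The cause was not tested. With the replicate block the called members were 3 with the guides, 7 with 4-OHT (Maml1 0.11, adjusted p = 0.0408, was added) and 8 in wild-type against DEP mutant cells. Of all genes, 6412 of 10662, 5012 of 12499 and 8406 of 12499 were called there. Against controls the called members were 7 in wild-type, 6 in DEP mutant (Ep300 was lost, adjusted p = 0.056) and 6 in NICD-ER ethanol cells. Of all 11988 genes, 7160, 4578 and 6450 were called. For the difference between the NICD effects 5 members were called, against 6736 of 12499 genes. Scaling CPM on filtered genes, chosen after seeing the data, moved group means by at most 0.754%. With 2 samples in each NICD group, and under 4 counts of Maml2 outside wild-type cells, the depth and the number of samples limit which differences could be detected.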
